A study of Mus musculus with 6 samples.

Results

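Insulin-like growth factor (IGF) signalling genes were examined on whole-genome expression arrays of mouse colon: the ligand gene Igf1, the receptors Igf1r and Igf2r, the secreted IGF-binding proteins Igfbp2, Igfbp3, Igfbp4, Igfbp5, Igfbp6 and Igfbp7, and Igf2bp3. The 10 genes were taken by name from the 23462 genes that the arrays could be named for, and all 13 of their probes were read. The arrays came from 3 control and 3 Islr knockout colons, all from male mice, with 1 single-colour array per sample. By the source field of the labels, animals of both genotypes drank 3.5% dextran sulfate sodium, which injures the colonic epithelium, for 5 days and then recovered for 1 day, although the treatment field of the same labels names no treatment. The Islr product is a leucine-rich repeat protein secreted by stromal cells. The labels used here name the genotype as Islr knockout or control, with KO or WT in the sample titles. They give no allele, deleting Cre, strain or age, and nothing in them says whether animals shared a litter or a cage. The series' design text speaks of separation by flow without naming a gate, and markers of epithelium, smooth muscle, fibroblasts and leukocytes were all detected. P-values therefore measure the spread between these 6 samples. Each genotype occupied its own slide row, so slide row and genotype cannot be told apart in any difference below.

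The IGF ligands are secreted peptides, made in peripheral tissues largely by mesenchymal cells and macrophages and, under growth hormone, by the liver. They bind the receptor tyrosine kinase IGF1R, which signals through insulin receptor substrates to the PI3K-AKT and MAPK pathways, whereas IGF2R carries no kinase and clears IGF-II and lysosomal enzymes from the cell surface. IGFBPs hold the ligands outside the cell, prolong their life and limit or direct their access to the receptor until proteases cut the binding protein. In the intestine IGF-I is known as a growth factor for epithelium and muscle.

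The binding-protein genes whose signals differ below are separate genes with separate promoters, and the 250 bases upstream of a RefSeq transcript start are shown for Igfbp3 and Igfbp4, which both fell, and for Igfbp5, next to Igfbp2 on the chromosome. Each is written 5′ to 3′ on the gene's strand, from RefSeq on build GRCm38.p6. Capitals mark matches on either strand to a TATA box (TATAAA), a GC box (GGGCGG) or the binding motif of TEAD factors (GGAATG); none of the matches overlapped another in these 3 windows. The starts used for Igfbp3 and Igfbp4 lie 1575 and 1239 bases inside the outermost annotated edge of the gene, and that for Igfbp5 lies at the edge. Igfbp3 lies on the minus strand (chr11:7213924-7214173), Igfbp4 on the plus strand (chr11:99040994-99041243) and Igfbp5 on the minus strand (chr1:72874866-72875115).
Igfbp3: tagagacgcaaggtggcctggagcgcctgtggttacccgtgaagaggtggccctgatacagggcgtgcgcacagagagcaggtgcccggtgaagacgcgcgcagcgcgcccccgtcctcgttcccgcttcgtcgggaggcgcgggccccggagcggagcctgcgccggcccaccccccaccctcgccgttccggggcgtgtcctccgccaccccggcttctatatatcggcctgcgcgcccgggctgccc
Igfbp4: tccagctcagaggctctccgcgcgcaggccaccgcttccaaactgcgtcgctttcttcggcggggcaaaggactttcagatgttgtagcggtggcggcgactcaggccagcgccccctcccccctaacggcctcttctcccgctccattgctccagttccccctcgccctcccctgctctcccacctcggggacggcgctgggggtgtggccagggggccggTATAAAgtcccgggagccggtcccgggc
Igfbp5: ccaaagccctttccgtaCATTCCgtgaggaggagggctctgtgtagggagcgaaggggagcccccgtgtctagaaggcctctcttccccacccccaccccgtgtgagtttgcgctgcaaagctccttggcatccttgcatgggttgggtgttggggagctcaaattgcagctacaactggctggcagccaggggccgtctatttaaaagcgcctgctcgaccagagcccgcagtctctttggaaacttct
The Igfbp4 window held 1 TATA box, near its 3′ end, and the Igfbp5 window held 1 TEAD motif. The Igfbp3 window, with 73.2% G and C, held 0 matches to the 3 motifs. Over the 32851 windows of the same length in the table, 12.4% held a TATA box, 32.7% a GC box and 12.6% a TEAD motif, so single matches of this kind are common. The Igf1 window, at a start 2846 bases from the outermost annotated edge of the gene, also held 0 matches, as did that of Igf2bp3. Those of Igf1r, Igf2r and Igfbp7 held 2, 3 and 4 GC boxes. The Igfbp2 window at the gene's edge held 3 GC boxes and another Igfbp2 window 0 matches, while that of Igfbp6 held 1 TATA box.

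The genotype labels were checked on Islr. All levels below are log2 intensities from which the array's own 75th percentile was subtracted, given in the order of replicates 1 to 3. Control arrays read 1.57, 1.24 and 1.21 for Islr, and knockout arrays read -1.40, -0.93 and -1.31. Every knockout lay below every control, and the difference was -2.44 (SE 0.21, adjusted p 0.0171 in limma), without the spot of control replicate 1, which the scanner software marked as an outlier. The probe still read well above background on 3 of 3 knockout arrays, at 1862 to 3057 intensity units. The source of this remaining signal was not tested, nor was the part of stromal content in the fall. The 75th percentile before scaling was 6353 to 7110 intensity units in controls, against 4910 to 5820 in knockouts, and outlier spots made up 3.26% to 15.99% of an array, most on control replicate 1 and knockout replicate 1.

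Of the 10 IGF genes, 9 could be tested, and 7 of these had lower and 2 higher mean signal in the knockout; over all 16451 tested genes 48.8% were lower. Igfbp3 and Igfbp4 passed a 5% false discovery rate, both falling, so 2 of 9 were called against 3.82% of all tested genes (2.47% called lower). The median difference of the 9 was -0.69 on the log2 scale, against 0.01 over all tested genes. An unadjusted p under 0.05 was reached by 6 of the 9, against 28.2% of all tested genes. At the level of probes 3 of 12 tested were called, the Igfbp3 probe and both of Igfbp4, against 3.97% of all tested probes. Among the 11 probes with a usable spot on every array, 7 had all knockouts below all controls, where 18% of all such probes did, and 0 had all knockouts above. The 10 genes were chosen with earlier results of these data known. The shares set beside them therefore describe this set and do not test it. In RNA of mixed cells, fewer cells of a type and less RNA per cell cannot be told apart.

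**Figure D1:**
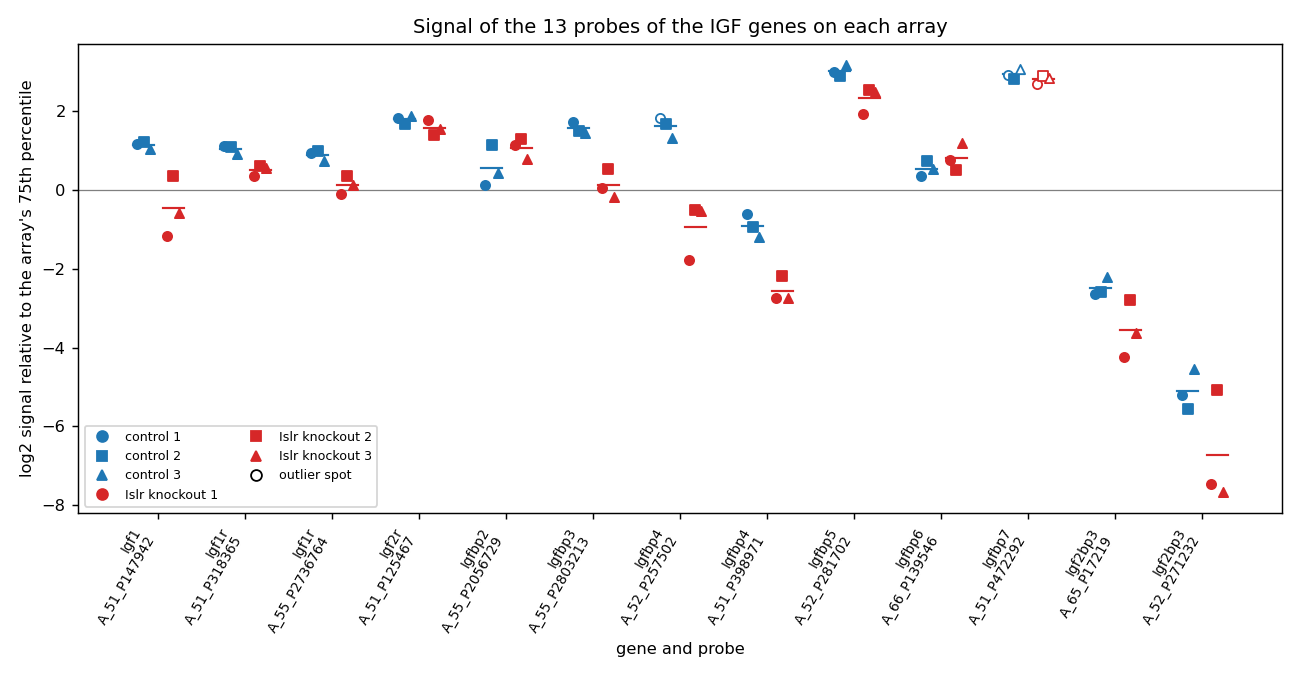
Scaled log2 signal, with each array's 75th percentile at 0 (vertical axis), at each of the 13 probes of the IGF genes (horizontal axis), with 1 point per array and a bar at the mean of 3 arrays; open points are outlier spots. At Igf1 the controls sit between 1.05 and 1.21 and the knockouts between -1.16 and 0.37; levels of different probes are not comparable.

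Igf1, the only ligand among the 10, was measured on all 6 arrays by 1 probe (A_51_P147942). Controls read 1.18, 1.21 and 1.05, while knockouts read -1.16, 0.37 and -0.59. The controls were tightly grouped (1.15 ± 0.081, SD, n = 3) and the knockouts were spread (-0.46 ± 0.77, SD, n = 3), with no overlap. On the log2 scale knockouts differed by -1.60 (SE 0.37, 95% confidence interval -2.49 to -0.72), a 3.04-fold lower mean signal. After adjustment across the tested probes this missed the 5% threshold (adjusted p 0.0615 in limma). The adjusted p was under 0.05 with normexp and quantile normalization (0.0337), with median scaling (0.0396), with an intensity trend (0.0463), with array weights (0.0213) and without knockout replicate 2 (0.0277), and not in the other alternatives.

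The genes whose profile over the 6 arrays lay closest to that of Igf1 were Col6a4, a collagen VI chain (root-mean-square difference 0.115 on the log2 scale after centring each gene), Olfr791, an olfactory receptor gene (0.145), and Epop (0.147), out of 12558 genes compared. These 3 differed by -1.48, -1.54 and -1.39 between genotypes and none was called (adjusted p 0.0739, 0.0579 and 0.0807 in limma). The measure takes in the spread within each group as well as the genotype difference, and the likeness is given as a description.

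Igf1r, the signalling receptor, was read by a pair of probes. At A_51_P318365 the log2 signal was 1.11, 1.1 and 0.92 in controls, against 0.37, 0.62 and 0.55 in knockouts. At A_55_P2736764 it was 0.94, 1.00 and 0.73 in controls, against -0.10, 0.37 and 0.13 in knockouts. Neither probe's groups overlapped, and both probes leaned the same way. The differences were -0.53 (SE 0.15) and -0.76 (SE 0.18), or 1.44-fold and 1.69-fold lower means, and neither was called (adjusted p 0.0908 and 0.0638 in limma). With array weights both passed (adjusted p 0.0331 and 0.0199), and the dimmer one also with normexp and quantile normalization (0.0355) and with an intensity trend (0.0447).

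Igf2r, the clearance receptor for IGF-II, was at 1.84, 1.68 and 1.87 in controls, against at 1.78, 1.39 and 1.55 in knockouts. The groups overlapped, since knockout replicate 1 lay above control replicate 2. The difference was -0.23 (95% confidence interval -0.62 to 0.17; adjusted p 0.420 in limma), which leaves room for a mean up to 0.62 lower or 0.17 higher on the log2 scale.

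Igfbp3, which carries most circulating IGF and is also made locally by stromal and endothelial cells, fell. The log2 signal of its probe (A_55_P2803213) was 1.73, 1.51 and 1.46 in controls, against 0.05, 0.54 and -0.17 in knockouts. All 3 knockouts lay below the lowest control, knockout replicate 2 being the closest. The means were 1.57 ± 0.14 and 0.14 ± 0.36 (SD, n = 3 each), a difference of -1.43 (SE 0.22, 95% confidence interval -1.95 to -0.91), 2.70-fold lower, with an adjusted p of 0.0321 in limma. The call was lost without control replicate 2 (adjusted p 0.0924), control replicate 3 (0.0847), knockout replicate 1 (0.0733) or knockout replicate 3 (0.0830), where the difference stayed between -1.48 and -1.28.

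Igfbp4, a binding protein known mainly as an inhibitor of IGF action until the protease PAPP-A cleaves it, also fell, at both of its probes. At A_52_P257502 the log2 signal was 1.84, 1.69 and 1.33 in controls, against -1.78, -0.51 and -0.52 in knockouts, the value of control replicate 1 coming from an outlier spot that the fit left out. At A_51_P398971 it was -0.60, -0.94 and -1.19 in controls, against -2.75, -2.18 and -2.73 in knockouts. The groups were separated at both probes. The differences were -2.45 (SE 0.44, n = 2 controls and 3 knockouts) and -1.65 (SE 0.24, n = 3 each), or 5.46-fold and 3.14-fold lower, with adjusted p of 0.0468 and 0.0300 in limma.

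Both Igfbp4 probes thus gave the same direction with different sizes. The brighter probe kept its call without control replicate 1 (adjusted p 0.0418) and lost it without any knockout replicate (0.0504 to 0.0936); without control replicate 2 or 3 it had a single usable control and could not be tested. The dimmer probe kept its call without control replicate 1 (0.0384) or knockout replicate 2 (0.0305) and lost it in the other 4 fits (0.0662 to 0.0884). Averaging the usable probes on each array gave -1.70 (adjusted p 0.0613 in limma), but control replicate 1 then entered through the dimmer probe alone. With outlier spots kept, so that every array averaged both probes, the difference was -2.10 (adjusted p 0.0270), an alternative chosen after seeing the data.

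Igfbp5, a matrix-binding protein of fibroblasts and smooth muscle, was at 3.00, 2.89 and 3.17 in controls, against 1.94, 2.55 and 2.5 in knockouts. No knockout reached the lowest control, and knockout replicate 1 was the lowest. The difference of -0.69 (SE 0.21, 95% confidence interval -1.19 to -0.18), 1.61-fold, was not called (adjusted p 0.101 in limma).

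Igfbp2, a binding protein of epithelial and other cells, lies next to Igfbp5 on chromosome 1, with 0 annotated genes between them. Its log2 signal was 0.13, 1.14 and 0.44 in controls, against 1.14, 1.31 and 0.79 in knockouts. The controls spanned about 1 log2 unit and the groups overlapped. The difference was 0.51 (SE 0.29, 95% confidence interval -0.19 to 1.2; adjusted p 0.311 in limma), and with array weights it was 0.16.

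Igfbp6, which prefers IGF-II over IGF-I, was at 0.36, 0.73 and 0.53 in controls, against 0.76, 0.50 and 1.2 in knockouts. These ranges overlapped, and the difference of 0.28 (95% confidence interval -0.25 to 0.81; adjusted p 0.456 in limma) was within the spread of the arrays. The upper bounds of Igfbp2 and Igfbp6 still allow a rise of 1.2 and 0.81 on the log2 scale, so these intervals do not show equal expression.

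Igfbp7, a secreted relative that binds IGFs weakly and is prominent around vessels and in stroma, could not be tested, because its single probe was an outlier spot on 5 of 6 arrays. With outlier spots kept, the log2 signal was 2.93, 2.82 and 3.08 in controls, against 2.70, 2.89 and 2.86 in knockouts. The ranges overlapped, with a difference of -0.13 (SE 0.15, adjusted p 0.621 in limma).

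Igf2bp3 does not bind IGF: it encodes a fetal RNA-binding protein named for its binding to Igf2 mRNA. Its probe A_65_P17219 was at -2.65, -2.58 and -2.20 in controls, against -4.23, -2.80 and -3.64 in knockouts. The groups did not overlap, but knockout replicate 2 came close to the lowest control. The difference was -1.08 (SE 0.37, 95% confidence interval -1.95 to -0.21) and was not called (adjusted p 0.122 in limma). The second probe (A_52_P271232) cleared background on 3 of 3 control arrays and on 1 of 3 knockout arrays, so its difference of -1.63 (SE 0.69, adjusted p 0.191) is uncertain in size. Without knockout replicate 2 it was -2.46 (adjusted p 0.0313 in limma). The remaining knockouts then read 27.86 and 28.62 intensity units, against 171.8 in replicate 2, so this call rests on spots near background.

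**Figure D2:**
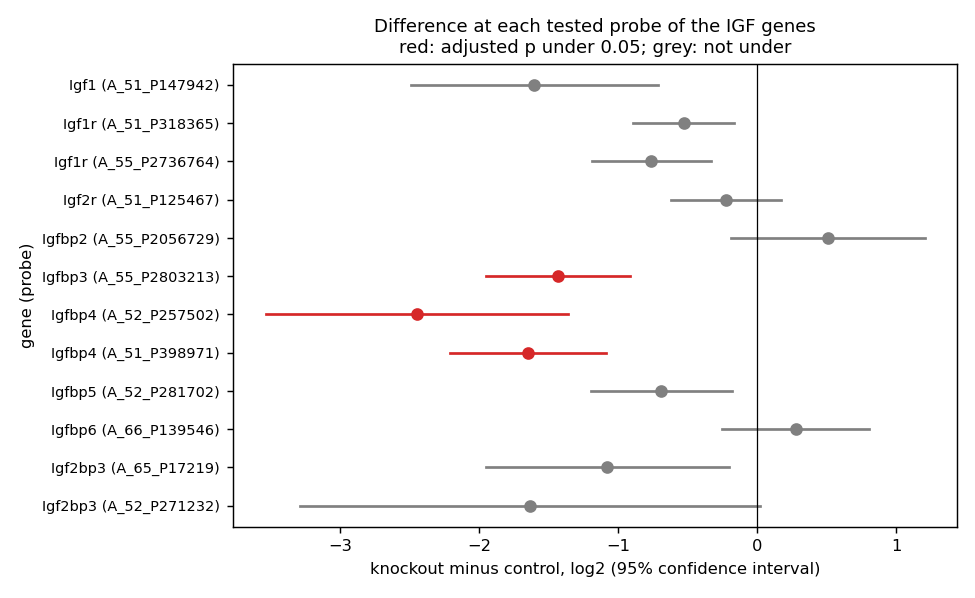
Knockout minus control on the log2 scale (horizontal axis), with its 95% confidence interval from limma, at each of the 12 tested probes of the IGF genes (vertical axis). The intervals of Igfbp3 and both Igfbp4 probes lie wholly below 0 and are drawn in red for an adjusted p under 0.05; those of Igf2r, Igfbp2, Igfbp6 and the dimmer Igf2bp3 probe include 0.

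From the lowest to the highest signed difference at the brightest tested probe of each gene, Igfbp4 (-2.45) came first, followed by Igf1 (-1.60), Igfbp3 (-1.43), Igf2bp3 (-1.08), Igfbp5 (-0.69), Igf1r (-0.53), Igf2r (-0.23), Igfbp6 (0.28) and Igfbp2 (0.51). The confidence intervals of neighbours in this order overlap throughout. Those of Igfbp3 (-1.95 to -0.91) and Igfbp2 (-0.19 to 1.2) did not overlap, although the difference between the genes was not itself tested.

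Knockout animals differed among themselves in these genes. In 8 probes of 6 genes all knockouts lay below all controls with outlier spots kept, as did 17.8% of all tested probes. Knockout replicate 2 was the highest knockout in 8 of these 8 probes and knockout replicate 1 the lowest in 7. The same order was common across the arrays: among the 6298 tested probes with all knockouts below all controls, knockout replicate 2 was the highest in 55.6% and knockout replicate 1 the lowest in 67.5%. Leaving out knockout replicate 1 reduced the Igf1 difference to -1.25 (adjusted p 0.109 in limma) and leaving out knockout replicate 2 enlarged it to -2.02. Each of the 9 tested genes kept its direction in every fit with 1 array left out in which it could be tested.

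**Figure D3:**
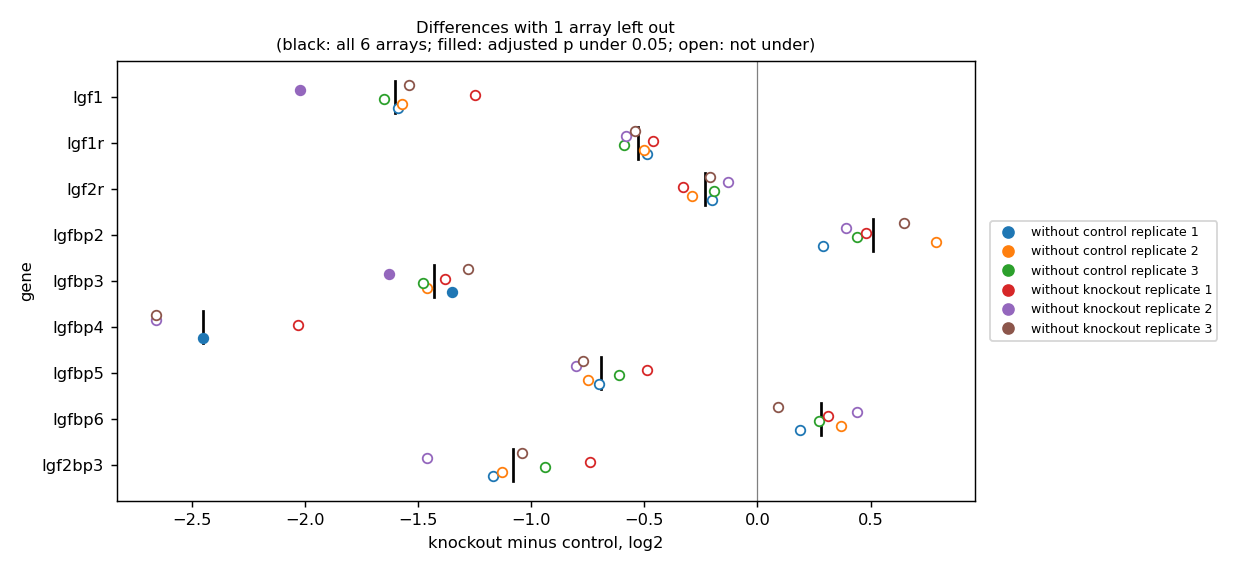
Knockout minus control on the log2 scale (horizontal axis) for each tested IGF gene (vertical axis) with all 6 arrays (black line) and with 1 array left out (points, filled where the adjusted p is under 0.05). Points of Igfbp3 run from -1.63 to -1.28, and no gene's points cross 0.

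Other genes of the pathway were read from lists of ligands, growth hormone signalling, IGFBP proteases and receptor signalling. Of 7 further family genes 5 were tested and 0 called in limma, 2 lower and 3 higher. An unadjusted p under 0.05 was reached by 3 of the 5, against 28.2% of all tested genes. Igf2, the other ligand, was at -0.39, -1.57 and -1.76 in controls, against -2.74, -1.93 and -2.62 in knockouts, without overlap and with control replicate 1 well above the other controls; its difference was -1.19 (SE 0.41, adjusted p 0.126). Insrr, an insulin receptor-related gene, differed by 1.32 (SE 0.41, adjusted p 0.104) and Igf2bp2, a paralogue of Igf2bp3, by 0.79 (SE 0.30, adjusted p 0.159). Igfbp1, which directly neighbours Igfbp3 on chromosome 11, and Igfals, the serum partner of the IGFBP3 complex, were well above background on 0 arrays.

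Of the growth hormone genes 7 of 7 were tested, 4 lower and 3 higher, with 0 called in limma and 1 at an unadjusted p under 0.05. That gene was Ghr, the growth hormone receptor, which differed by -0.95 (SE 0.30, adjusted p 0.105 in limma). Control replicate 1 was its highest array, at 0.11 against -0.64 and -0.86 in the other controls and -1.66 to -1.05 in knockouts. Jak2 differed by 0.41 (SE 0.19) and Stat5b by -0.30 (SE 0.14). Stat5a counts as higher by its brightest probe (0.27, SE 0.23). Its other probe differed by -0.66 (SE 0.18, unadjusted p 0.00913, adjusted p 0.0835 in limma), without overlap. Of 25 genes below IGF1R 23 were tested, 13 lower and 10 higher, with a median of -0.05, 0 called in limma and 3 at an unadjusted p under 0.05. These were the phosphatase gene Ptpn1 (-0.71, SE 0.18, adjusted p 0.0723), the adaptor gene Grb10 (-0.93, SE 0.28, adjusted p 0.101) and Eif4ebp1, a translation repressor (-0.55, SE 0.20, adjusted p 0.146). Over all tested genes 28.2% had an unadjusted p under 0.05 in limma, a share that neither of these 2 lists exceeded.

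Among 9 genes of IGFBP proteases and their inhibitors 8 were tested, 5 lower and 3 higher, with a median of -0.41. The called one was Stc1, which encodes stanniocalcin, an inhibitor of PAPP-A. Its log2 signal was -2.31, -1.44 and -0.70 in controls, against -6.99, -4.70 and -4.42 in knockouts. The groups were far apart, but only 2 of 3 knockout arrays gave a spot well above background, so the fall of -3.89 (SE 0.74, adjusted p 0.0446 in limma) is uncertain in size. The call was kept without control replicate 1 (0.0445) and lost when any of the other 5 arrays was left out (0.0530 to 0.115).

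Pappa, the gene of the Igfbp4 protease, was named after its values were seen. Outlier spots on 3 arrays kept its probe from being tested; with those spots kept it was at 2.27, 1.15 and 1.33 in controls, against -1.60, 0.07 and 0.04 in knockouts, a difference of -2.08 (SE 0.52, adjusted p 0.0666 in limma). No knockout reached the lowest control. Of 4 genes whose products share the IGFBP domain 2 were tested, 1 lower and 1 higher. Kazald1 differed by 0.87 (SE 0.39, adjusted p 0.211 in limma), with overlap. Esm1, an endothelial proteoglycan gene, fell, from 1.40, 1.41 and 1.21 in controls to -2.24, -0.14 and -2.49 in knockouts. Its difference was -2.97 (SE 0.59, adjusted p 0.0479 in limma), and the call was kept without knockout replicate 2 (0.0111) and lost when any of the other 5 arrays was left out (0.0652 to 0.127).

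Marker lists of several cell types were read beside these genes. Of 10 fibroblast markers 9 were tested and 9 were lower, with a median of -0.63 and 1 called, Pdgfrb (-1.17, adjusted p 0.0395 in limma, and 0.0504 to 0.111 with an array left out). Their summed signal, in units of the array's 75th percentile, was 49.2 to 54.8 in controls, against 28.4, 39.0 and 39.9 in knockout replicates 1 to 3. Of 9 macrophage markers 8 were tested and 8 were lower (median -0.69, 0 called, 4 at an unadjusted p under 0.05). Their sums were 17.7 to 28.4 in controls, against 11.6, 16.3 and 11.7 in knockout replicates 1 to 3. Of 9 endothelial markers 8 were tested and 8 were lower (median -1.04, 0 called, 6 at an unadjusted p under 0.05), with sums of 11.9 to 13.8 in controls, against 3.68, 9 and 7.87 in knockout replicates 1 to 3. Knockout replicate 1, which was lowest in 7 of the 8 separated IGF probes, was also lowest in all of these sums, in the macrophage sum only narrowly. It was the lowest knockout in 67.5% of all tested probes with all knockouts below all controls, so this order is not particular to these lists.

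Other markers went the opposite way. Means were higher in 7 of 7 tested smooth muscle markers (median 0.36, 0 called, 3 at an unadjusted p under 0.05). Their sums were 46.9 to 58.8 in controls, against 65.4 to 76.6 in knockouts. Means were also higher in 9 of 9 tested epithelial markers (median 1.26, 0 called, 3 at an unadjusted p under 0.05). The epithelial sums were 66.1, 20.1 and 48.5 in control replicates 1 to 3, against 79.4 to 104 in knockouts, so control replicate 2 was far below the other controls. For all marker lists, the share of all tested genes at an unadjusted p under 0.05 was 28.2%. Of 9 neutrophil markers 8 were tested, with a median of -3.30, and 6 fell, all 6 of them called in limma. The summed signal of the list was 31.7 to 35.1 in controls, against 26.6 to 28.8 in knockouts. The other 2 tested, Csf3r and Trem1, differed by 0.17 and 0.18 and were not called, a second Trem1 probe differed by -3.07, also not called, and the untested Ly6g differed by 0.78 with outlier spots kept. Most of each neutrophil sum came from Csf3r, Trem1 and Ly6g, so the sum does not follow the markers that fell. Every marker of these 6 lists was well above background on at least 1 array. The 9 tested IGF genes had a median of -0.69. Those of the fibroblast (-0.63), macrophage (-0.69) and B and plasma cell (-0.71) lists were near it. The part of cell composition in the IGF differences was not tested.

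**Figure D4:**
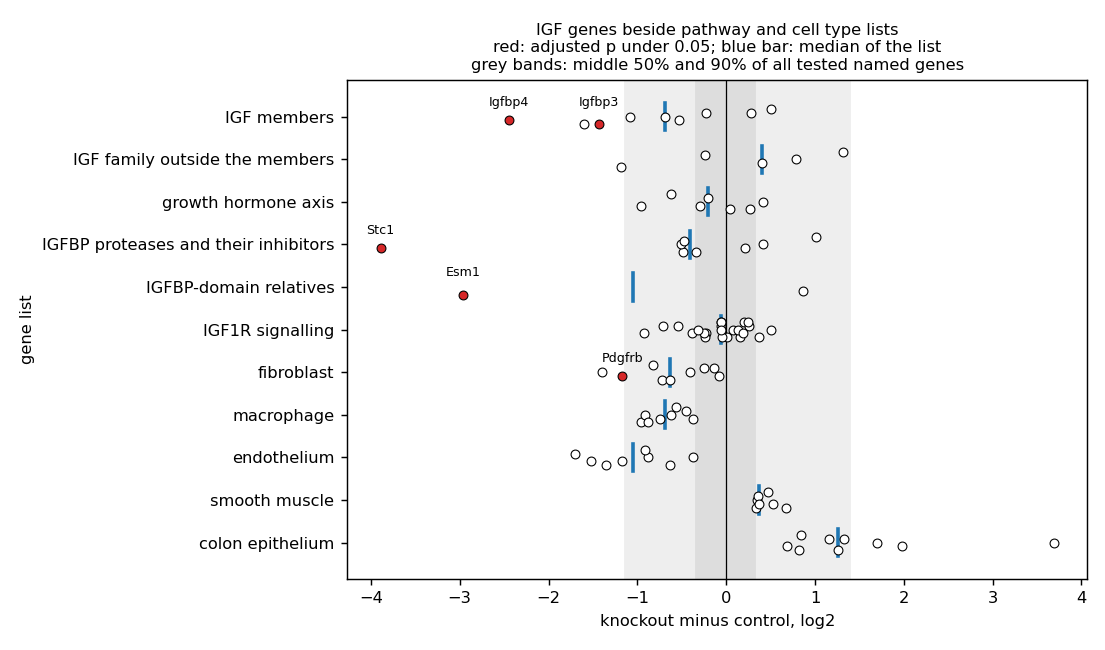
Knockout minus control on the log2 scale (horizontal axis) for each tested gene of the IGF set, the pathway lists and 5 cell type lists (vertical axis), with red points for an adjusted p under 0.05, a blue bar at the median and grey bands for the middle of all tested genes. The IGF median of -0.69 lies beside those of fibroblast (-0.63) and macrophage (-0.69) markers, while receptor signalling genes centre on -0.05. The B and plasma cell list, which is not drawn, had a median of -0.71.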

How the data were processed

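Total RNA of 6 colons was labelled and hybridised to 1 array each, per the labels' protocols. The labels name Cy3 and a green column, whereas the files hold the red channel, which was used. The authors' processed signal is an intensity on a linear scale, background-subtracted and spatially detrended by Agilent Feature Extraction 11.5.1.1 on design 074809, per the file headers, which record no scaling across arrays. The value table of the series also holds deposited intensities and matched the scanner signals (log2 correlation of at least 0.999999).

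Signals of the 59305 non-control spots were log2-transformed and centred on the 75th percentile of each array. Spots marked as non-uniform or population outliers were set missing, unlike saturated spots, of which there were 0. Spots of a probe were averaged. Probes that cleared background throughout 1 group or both, with at least 2 usable values per group, were tested (35351 of 56605) across all probes with limma 3.58.1 (lmFit, then eBayes; R 4.3.3) as two-sided tests, genotype being the only term, with Benjamini-Hochberg adjustment at 5%. The number of arrays limits the precision, and 3 against 3 gives an exact permutation test no p below 0.1, so none was used for single genes. The procedure was tested on simulated data.

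RefSeq accessions named 59.7% of the probes through GRCm38.p6; the files place probes on mm9, so the annotation served for names and neighbours. A gene's standing probe is its tested probe with the highest mean. For the members the other probes are given beside it, while counts over the lists use standing probes only. The members and lists were chosen with earlier results of these data known. Named genes were the members, Islr, Igf2, the called genes of each pathway list or else its 3 with the lowest p, and the 3 closest to Igf1. Igfbp1, Igfals, Stat5a, Pappa, Kazald1, Pdgfrb and the neutrophil genes fall outside this rule and were named after their values were seen. Marker lists of neutrophils, enteric nervous system, skeletal muscle, adipocytes and B and plasma cells, computed in the same way, had medians of -3.30, -0.44, 0.56, 0.28 and -0.71. The adipocyte sum was 30.2 in control replicate 1, against 6.98 and 7.38 in control replicates 2 and 3 and 4.47 to 11.8 in knockouts. Its part in the differences above was not tested. Alternatives changed the background correction, scaling, outlier rule, dim filter, array weights, variance trend, value source, probe rule or arrays used.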

Additional observations from a re-analysis of the deposited data

How the results depend on the processing

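No tested IGF gene changed direction under any alternative tried. The number of called probes, 1403, was 2773 with normexp and quantile normalization, 2249 with median scaling, 2185 with quantile normalization alone, 484 without a filter on dim probes and 8119 with array weights; it was 40 to 2114 with an array left out. The number of IGF genes called, 2, was 0 at the brightest probes without the filter on dim probes, where the dimmer Igfbp4 probe kept its call (-1.65, adjusted p 0.0477 in limma), 4 with array weights, 1 with the mean of a gene's usable probes (2 with outlier spots kept as well, also chosen after seeing the data) and 1 without control replicate 1 and knockout replicate 1 together, an alternative chosen after seeing the data because these arrays had the most outlier spots; it was 3 with normexp, median scaling or an intensity trend, and 0 to 2 with an array left out. Igfbp3 stayed at -1.43 without the dim filter, just past the threshold (adjusted p 0.0502 in limma), and was -1.30 without both replicates 1 (adjusted p 0.0716). Igfbp4 was -2.45 without the dim filter (0.0747) and -1.70 with the mean of its usable probes (0.0613), where control replicate 1 lacked the brighter probe; with outlier spots kept that mean gave -2.10 (0.0270). Without both replicates 1, Igf1 was -1.24 (adjusted p 0.110). Igf1 passed with -1.58 under normexp, -1.57 under median scaling, -1.41 with array weights and -1.60 with an intensity trend, and Igf1r with -0.49 under array weights. With an array left out the range was -2.02 to -1.25 for Igf1, -0.59 to -0.46 for Igf1r, -0.33 to -0.13 for Igf2r, 0.29 to 0.79 for Igfbp2, -1.63 to -1.28 for Igfbp3, -2.66 to -2.03 for Igfbp4, -0.80 to -0.49 for Igfbp5, 0.09 to 0.44 for Igfbp6 and -1.46 to -0.74 for Igf2bp3. Without the dim filter 51784 probes were tested, which alone changes the adjusted p; the cause of the other changes was not tested. No paired analysis was possible because the labels number no replicates across the genotypes. Slide row and genotype cannot be told apart, because each genotype occupied a row of its own.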
